A study of Mus musculus with 23 samples.

Results

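The 41 genes described here encode the machinery that takes secretory and membrane proteins into the endoplasmic reticulum (ER), glycosylates them, removes those that fail to fold and exports the rest. They were listed by name in 5 steps, and each gene was represented by the brightest of the array's probe sets that carry its symbol alone. A value was obtained for 40 of the 41, out of 30176 gene symbols and 65956 gene-level probe sets on the array. Sec61g, the gamma subunit of the translocon channel, shared its probe set with other symbols and was not analysed here. The 40 genes comprised 8 of the translocon, 6 of the oligosaccharyltransferase, 7 of glycan trimming and cargo lectins, 10 of ER-associated degradation (ERAD) and 9 of the COPII coat. Each of the 40 had 1 such probe set. On 36 of them the signal exceeded background on every array, background being the 95th percentile of the array's own background probes. Sec61b exceeded it on 11, Mogs on 20 and Syvn1 on 22 of the 23 arrays. Derl3 exceeded it on 0 arrays, so its values are background readings.

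Whole aortas came from male ApoE-/- mice of the C57BL/6J strain, 8 weeks old at the start, which lack apolipoprotein E and develop atherosclerosis. Every group carried the deletion and received high-fat feed, so no wild-type or chow-fed aorta entered any comparison. Mice were kept in normoxia for 8 weeks (Nor 8W, n = 5) or 12 weeks (Nor 12W, n = 5), or in chronic intermittent hypoxia, repeated cycles of low oxygen used as a model of sleep apnea, for 8 weeks (CIH 8W, n = 5) or 12 weeks (CIH 12W, n = 4). The remaining group spent 8 weeks in CIH and then 4 weeks in normoxia (CIH 8W + Nor 4W, n = 4). Values are log2 signals of Clariom D mouse arrays, 1 array per aorta, and differences are on that log2 scale.

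Nascent chains enter the ER through the Sec61 channel, and the oligosaccharyltransferase attaches a preformed glycan as they emerge. Glucosidases and mannosidases then trim the glycan, and lectins read the trimmed form to decide between another folding round, export and degradation. Degradation runs through the Hrd1-Sel1l ubiquitin ligase, and export through vesicles coated with COPII, which form when the GTPase Sar1 recruits the Sec23-Sec24 and Sec13-Sec31 layers. In the artery wall this route carries collagens, elastin and other matrix proteins of smooth muscle cells and fibroblasts, and many of its genes are known targets of the unfolded protein response.

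All 10 smooth muscle markers exceeded background on every array, with a mean signal of 13.83 to 15.44 over the list. Markers of sympathetic neurons stood apart on 5 arrays: Nor 8W replicate 3, CIH 8W replicates 3 and 5, and Nor 12W replicates 3 and 4 had means of 7.20 to 12.12 over 11 markers, against 4.84 to 5.80 on the other arrays. No array of CIH 12W or of CIH 8W + Nor 4W was among them. Results are therefore also given without these 5 arrays. In whole tissue, a change in the number of cells of a type and a change in RNA per cell cannot be told apart. Nothing in the labels names a hybridization batch.

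CIH 12W was the group with the highest mean for 30 of the 40 genes, and Nor 8W had the highest mean for 0 and the lowest for 18. All 6 oligosaccharyltransferase genes and all 7 genes of glycan trimming and cargo lectins were highest in CIH 12W, against 5 of 8 translocon, 5 of 10 ERAD and 7 of 9 COPII genes. How often CIH 12W was highest among all genes was not counted, so how far this order is particular to the list is not known. Averaged over the 40 genes, the 4 arrays of CIH 12W lay at 10.86 to 10.93. The ranges were 10.68 to 10.79 in Nor 12W, 10.70 to 10.79 in CIH 8W + Nor 4W, 10.53 to 10.74 in CIH 8W and 10.44 to 10.70 in Nor 8W, so no other array reached those of CIH 12W. The limma moderated F-test over the 5 groups gave an unadjusted p under 0.05 for 26 of the 40 genes, against 13.4% of all probe sets, and an adjusted p under 0.05 for 10, against 1.27%. Among the genes above background on every array, the shares were 28.0% and 2.62%. By step, 8 of 9 COPII, 6 of 7 glycan trimming and lectin, 4 of 6 oligosaccharyltransferase, 4 of 8 translocon and 4 of 10 ERAD genes passed at the unadjusted level. The within-group SD had a median of 0.154 over the 40 genes, from 0.0907 for Man1b1 to 0.335 for Edem1.

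**Figure D1:**
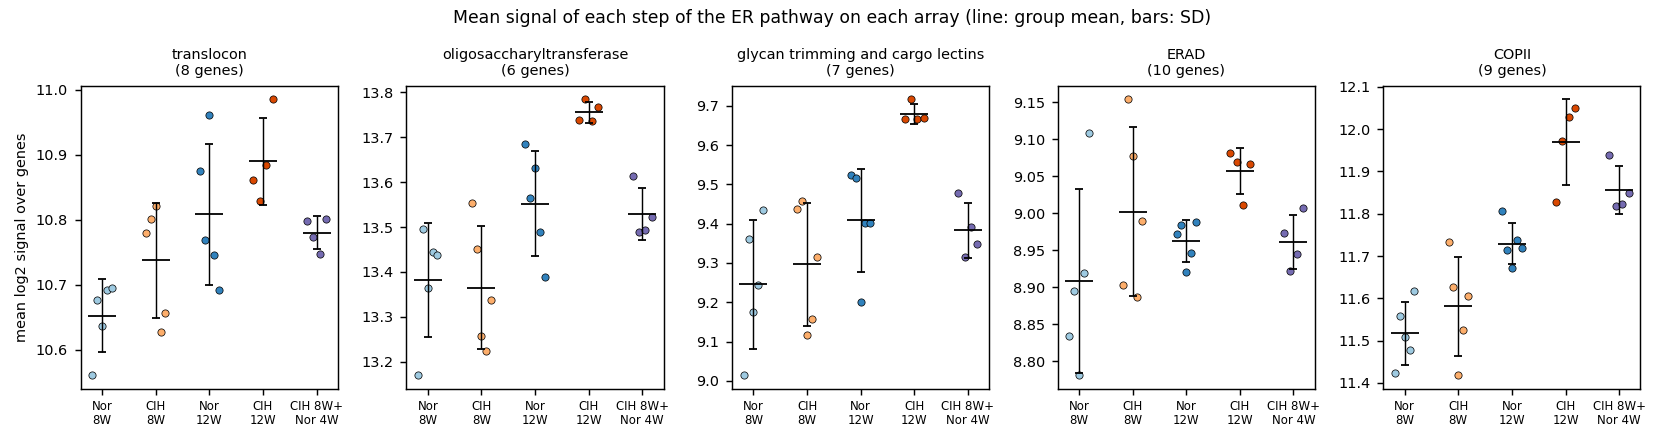
Mean log2 signal over the genes of each step (y axis, ranges differ between panels) on each of the 23 arrays, by group (x axis). Points are arrays, horizontal lines group means and bars SD. All 4 CIH 12W arrays lay above every other array for the oligosaccharyltransferase (lowest 13.74, highest other 13.69) and for glycan trimming and cargo lectins (9.67 and 9.52). They did not for the other 3 steps, and other gene lists were not examined in this way.

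A gene was called in a comparison at an unadjusted limma p under 0.05 and a fold change over 1.1. In CIH 12W relative to Nor 12W, 16 of the 40 genes were higher in CIH 12W and 1 was lower, whereas 4.29% of all probe sets were called higher and 6.99% lower (11.5% and 8.6% of genes above background on every array). The median difference of the 40 was 0.18, beside 0.001 over the genes above background. After adjustment over all probe sets, 2 of the 40 passed, Rpn1 and Sel1l, where 0.194% of probe sets passed as higher (0.733% of genes above background). In 11 of the 40 every CIH 12W array lay above every Nor 12W array, against 1.99% of all probe sets (6.96% of genes above background). In 0 of the 40 every one lay below, against 3.2% (3.94%). In CIH 12W relative to CIH 8W + Nor 4W, which used the same 4 CIH 12W arrays, 11 of 40 were higher and 1 lower, beside 2.43% and 3.9% of all probe sets (6.18% and 2.31% of genes above background), with a median of 0.13. None passed adjustment in either direction (smallest adjusted p 0.15), where 0.0091% of all probe sets passed as higher and 0.0091% as lower (0.0353% and 0.0265% of genes above background). Here 16 of the 40 had every CIH 12W array on the higher side and 1 had every one on the lower side, against 2.35% and 2.75% of all probe sets (7.24% and 3.03% of genes above background). Rpn1, Stt3a, Ganab, Prkcsh, Uggt1, Lman2 and Sel1l were called higher in both comparisons, and Erlec1 lower in both.

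**Figure D2:**
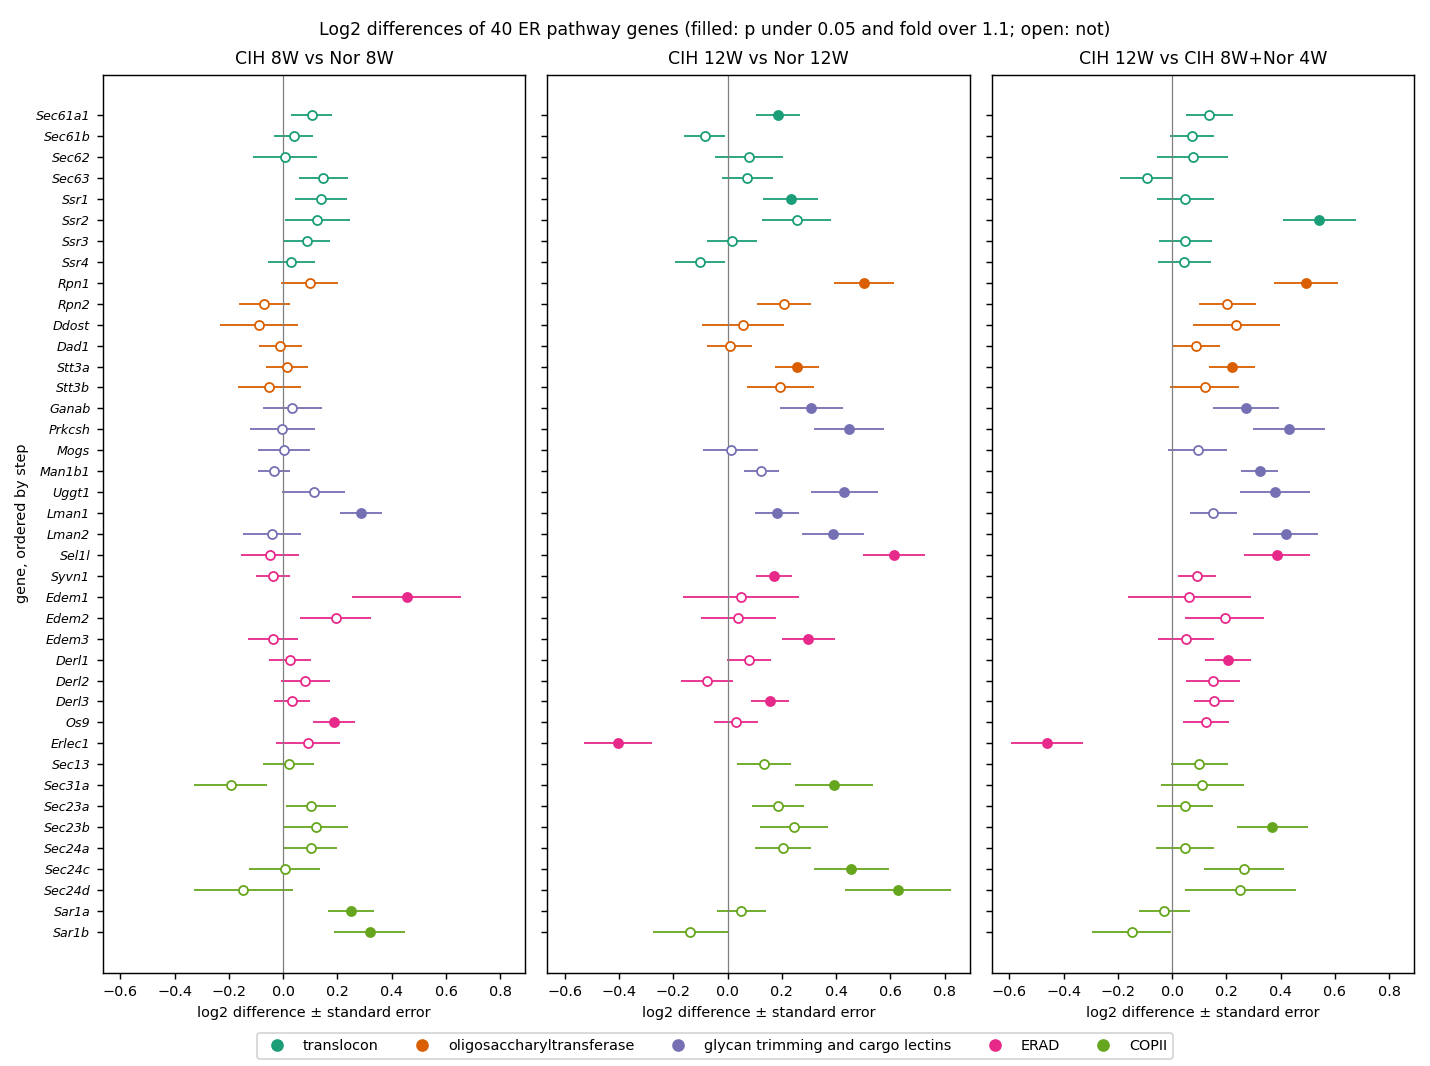
Log2 differences with standard errors (x axis) of the 40 genes, ordered by step (y axis), in CIH 8W relative to Nor 8W, CIH 12W relative to Nor 12W and CIH 12W relative to CIH 8W + Nor 4W. Filled points were called (p under 0.05 and fold over 1.1): 5 were higher and 0 lower at 8 weeks. At 12 weeks 16 lay above Nor 12W with 1 below it, while 11 lay above CIH 8W + Nor 4W with 1 below it.

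In the oligosaccharyltransferase, 2 of 6 genes, Rpn1 and Stt3a, were called higher in each of the 2 CIH 12W comparisons. Rpn1 (chromosome 6, 88084473 to 88105304, GRCm38.p6) encodes ribophorin I, a subunit that presents some substrates to the catalytic site. Its signals were 13.69, 13.72, 13.76 and 13.61 in CIH 12W, 13.39, 13.27, 13.30, 13.02 and 12.98 in Nor 12W and 13.28, 13.18, 13.18 and 13.17 in CIH 8W + Nor 4W. In Nor 8W they were 12.58, 13.04, 12.96, 13.05 and 13.17, and in CIH 8W 13.19, 13.29, 13.00, 12.74 and 13.07. Every CIH 12W array was thus above every array of the other 4 groups. The difference was 0.50 ± 0.11 against Nor 12W (limma adjusted p = 0.0331) and 0.49 ± 0.12 against CIH 8W + Nor 4W (adjusted p = 0.244).

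Stt3a, the catalytic subunit that works alongside the translocon, read 14.69, 14.87, 14.86 and 14.90 in CIH 12W and 14.78, 14.59, 14.48, 14.57 and 14.47 in Nor 12W. It read 14.65, 14.69, 14.54 and 14.57 in CIH 8W + Nor 4W, 14.23, 14.49, 14.33, 14.40 and 14.42 in Nor 8W and 14.60, 14.54, 14.30, 14.20 and 14.30 in CIH 8W. CIH 12W overlapped Nor 12W only through 1 low CIH 12W and 1 high Nor 12W array, and cleared CIH 8W + Nor 4W by a narrow margin at its lowest array. Stt3a was called in both comparisons, at 0.25 ± 0.081 and 0.22 ± 0.086, the second not without CIH 8W + Nor 4W replicate 3 (lowest difference 0.20). Stt3b, the catalytic subunit that acts on sites skipped by Stt3a, differed by 0.19 ± 0.12 and 0.12 ± 0.13 and was not called. The gap between the 2 catalytic genes' differences in CIH 12W relative to Nor 12W was 0.060 (two-sided exact permutation p = 0.635), so these arrays do not separate them. Rpn2, Ddost and Dad1, which complete the core of the enzyme, differed by 0.21 ± 0.10, 0.056 ± 0.15 and 0.007 ± 0.084 against Nor 12W, none of them called.

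All 7 genes of glycan trimming and cargo lectins had positive differences in both CIH 12W comparisons, and 5 were called in each. Glucosidase II removes the inner glucoses that hold a glycoprotein on calnexin, and both of its subunits were among them. Prkcsh, the beta subunit, gave 10.00, 9.95, 9.84 and 10.03 in CIH 12W, 9.59, 9.72, 9.33, 9.50 and 9.40 in Nor 12W and 9.71, 9.38, 9.55 and 9.46 in CIH 8W + Nor 4W. Its Nor 8W arrays gave 9.005, 9.50, 9.28, 9.43 and 9.55 and its CIH 8W arrays 9.72, 9.31, 8.96, 9.24 and 9.51. CIH 12W stood above all other arrays, by 0.45 ± 0.13 over Nor 12W (adjusted p = 0.116) and 0.43 ± 0.13 over CIH 8W + Nor 4W (adjusted p = 0.476).

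Ganab, the catalytic alpha subunit, reached 11.46, 11.55, 11.52 and 11.32 in CIH 12W and 11.50, 11.21, 10.80, 11.10 and 11.16 in Nor 12W, where replicate 1 lay inside the CIH 12W range and replicate 3 was lowest. In CIH 8W + Nor 4W it was 11.23, 11.15, 11.22 and 11.16, below every CIH 12W array. In Nor 8W it was 10.78, 11.10, 10.96, 10.99 and 11.11, and in CIH 8W 11.24, 11.24, 10.72, 10.88 and 11.02. Ganab differed by 0.31 ± 0.12 and 0.27 ± 0.12; the first call was lost without Nor 12W replicate 3, at 0.22. The second was lost when CIH 12W replicate 1, 2 or 3 or CIH 8W + Nor 4W replicate 2 or 4 was left out, the difference staying between 0.24 and 0.32. Mogs, glucosidase I, which removes the outermost glucose, differed by 0.011 ± 0.10 and was not called.

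Uggt1 re-adds a glucose to glycoproteins that have not folded and so returns them to calnexin. Its 4 CIH 12W arrays read 10.33, 10.30, 10.30 and 10.21, against 9.88, 10.12, 9.40, 9.94 and 9.94 in Nor 12W and 9.99, 9.77, 9.95 and 9.93 in CIH 8W + Nor 4W. Nor 8W arrays read 9.54, 9.94, 9.65, 9.77 and 10.04 and CIH 8W arrays 9.97, 10.17, 9.78, 9.65 and 9.92. CIH 12W exceeded every other array, with Nor 12W replicate 3 farthest below. The differences were 0.43 ± 0.12 and 0.38 ± 0.13, and both calls held with each array left out in turn.

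Man1b1, the ER mannosidase that starts the clock for degradation of a misfolded glycoprotein, was called against CIH 8W + Nor 4W only. Its signals were 7.60, 7.44, 7.59 and 7.57 in CIH 12W against 7.38, 7.19, 7.21 and 7.13 in CIH 8W + Nor 4W and 7.43, 7.55, 7.42, 7.38 and 7.36 in Nor 12W. They were 7.16, 7.44, 7.42, 7.35 and 7.40 in Nor 8W and 7.42, 7.38, 7.29, 7.24 and 7.28 in CIH 8W. CIH 8W + Nor 4W was the low group here, with every array below every CIH 12W array. The difference was 0.32 ± 0.067 (adjusted p = 0.15, the smallest of the 40 in that comparison), beside 0.12 ± 0.064 against Nor 12W, and CIH 8W + Nor 4W itself was lower than Nor 12W by 0.20 ± 0.064.

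Of the 2 lectins that ride with cargo between ER and Golgi, Lman2 was called in both CIH 12W comparisons and Lman1 in 1, a contrast that was not itself tested. Lman2 (VIP36), which binds high-mannose glycoproteins, read 11.28, 11.49, 11.26 and 11.32 in CIH 12W, 11.16, 11.03, 10.69, 10.93 and 10.94 in Nor 12W and 11.11, 10.79, 10.94 and 10.84 in CIH 8W + Nor 4W. It read 10.45, 10.94, 10.73, 10.90 and 10.99 in Nor 8W and 11.02, 10.85, 10.57, 10.59 and 10.76 in CIH 8W. No other array reached CIH 12W, and Lman2 rose by 0.39 ± 0.11 and 0.42 ± 0.12 in the 2 comparisons. Lman1 (ERGIC-53), the receptor that with Mcfd2 exports coagulation factors, read 11.66, 11.90, 11.77 and 11.87 in CIH 12W, 11.72, 11.52, 11.69, 11.63 and 11.52 in Nor 12W and 11.68, 11.70, 11.56 and 11.65 in CIH 8W + Nor 4W. Its 8-week arrays read 11.11, 11.22, 10.90, 11.14 and 11.35 in Nor 8W and 11.34, 11.66, 11.38, 11.31 and 11.46 in CIH 8W. The 3 groups at 12 weeks overlapped, and Nor 8W was the low group. Lman1 differed by 0.18 ± 0.082 in CIH 12W relative to Nor 12W, a call lost without Nor 12W replicate 2, 4 or 5 or CIH 12W replicate 2 or 4, the difference running from 0.15 to 0.23.

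**Figure D3:**
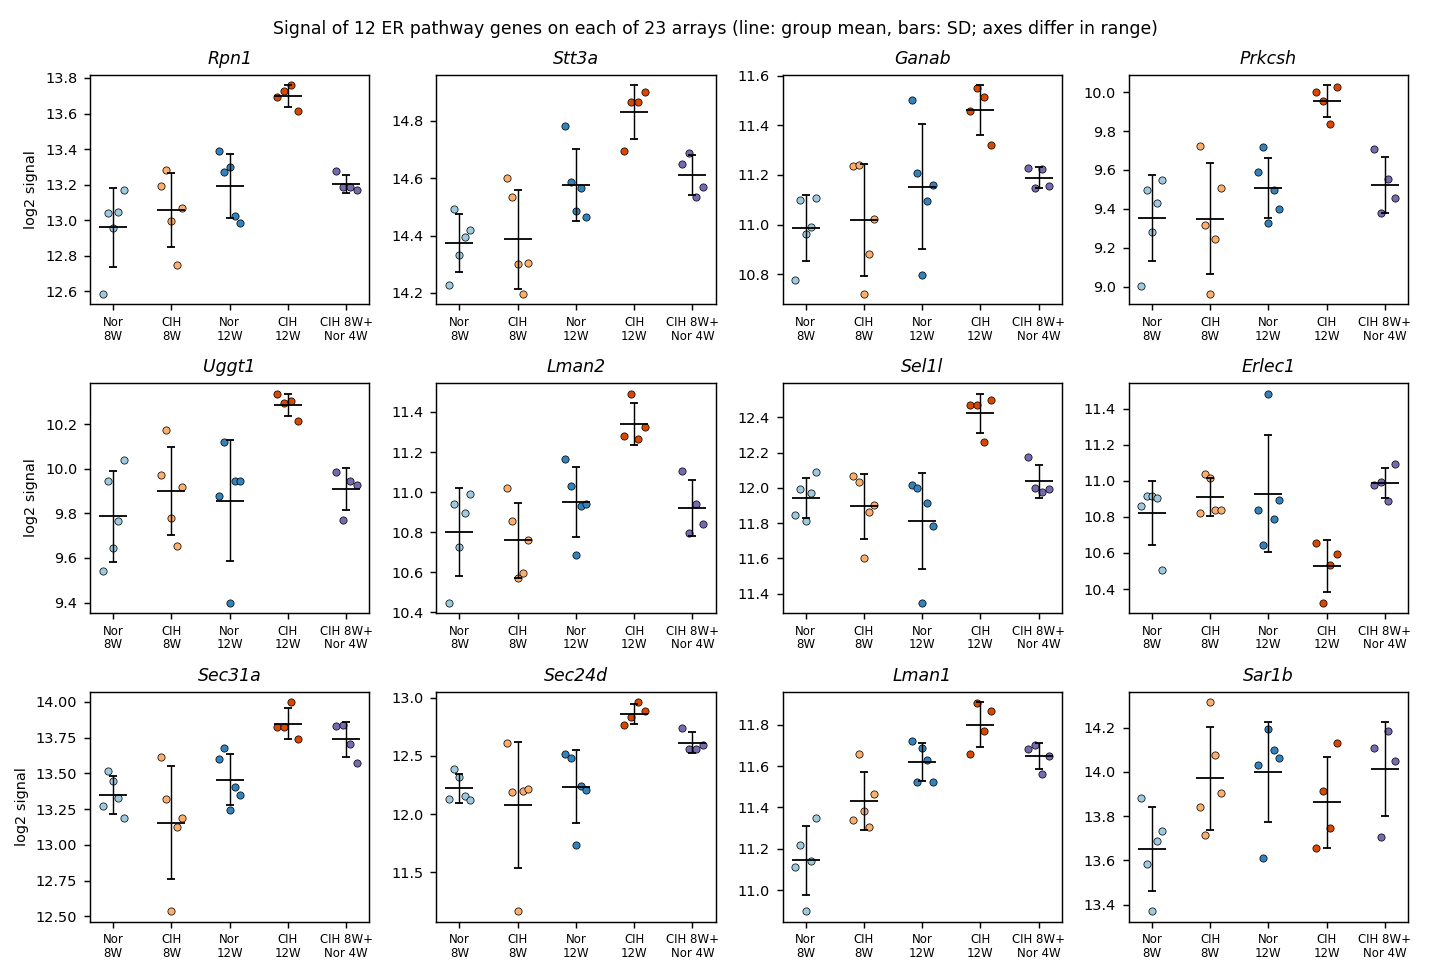
Log2 signal (y axis, ranges differ between panels) of 12 genes on each of the 23 arrays by group (x axis), with group means as lines and SD as bars. All 4 CIH 12W arrays lie above every other array for Rpn1, Prkcsh, Uggt1, Lman2, Sel1l and Sec24d. How often this occurs among all genes was not counted. Erlec1 was the gene called lower, with CIH 12W arrays at 10.33 to 10.65.

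Genes of ERAD moved in both directions. Of 10, 4 were called higher and 1 lower in CIH 12W relative to Nor 12W, with a median of 0.063, and 2 higher and 1 lower in CIH 12W relative to CIH 8W + Nor 4W, with a median of 0.14. Sel1l (chromosome 12, 91806043 to 91849157) encodes the adaptor that holds the Hrd1 ubiquitin ligase complex together and passes it substrates. Its signals were 12.47, 12.47, 12.26 and 12.50 in CIH 12W, 12.02, 12.00, 11.35, 11.91 and 11.78 in Nor 12W and 12.18, 12.00, 11.98 and 11.99 in CIH 8W + Nor 4W. At 8 weeks they were 11.85, 11.99, 11.81, 11.97 and 12.09 in normoxia and 12.07, 12.03, 11.60, 11.86 and 11.91 in CIH. Every CIH 12W array was above all others, and Nor 12W replicate 3 was the lowest array of the series. Sel1l differed by 0.61 ± 0.11 (adjusted p = 0.0111, the smallest of the 40) and by 0.39 ± 0.12 (adjusted p = 0.476). Without CIH 12W replicate 4 no gene of the 40 passed the adjusted threshold in CIH 12W relative to Nor 12W, and of the 9 fits with an array left out Rpn1 passed in 2, those without Nor 12W replicate 1 or 2.

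Syvn1, the Hrd1 ligase itself, lay close to background at 5.37, 5.48, 5.40 and 5.44 in CIH 12W and 5.20, 5.31, 5.13, 5.29 and 5.33 in Nor 12W. The groups did not overlap, and the difference was 0.17 ± 0.067. This call was lost without Nor 12W replicate 3 or CIH 12W replicate 2, with a lowest difference of 0.14, and against CIH 8W + Nor 4W the difference was 0.092 ± 0.071, not called. Derl3, one of the derlin channel proteins, was also called higher, by 0.16 ± 0.070, but at readings of 3.49 to 3.84 that are background on every array.

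The mannose-trimming proteins Edem1, Edem2 and Edem3 mark glycoproteins for degradation. Edem3 read 11.89, 11.92, 12.06 and 12.22 in CIH 12W, 11.84, 11.80, 11.36, 11.82 and 11.81 in Nor 12W and 12.07, 11.90, 11.92 and 11.99 in CIH 8W + Nor 4W. It read 11.77, 11.80, 11.64, 11.57 and 11.88 in Nor 8W and 11.67, 11.65, 11.49, 11.78 and 11.87 in CIH 8W. Both 12-week groups with CIH exposure lay above all Nor 12W arrays, CIH 12W by 0.30 ± 0.098 and CIH 8W + Nor 4W by 0.25 ± 0.098, and the second call was lost without Nor 12W replicate 3 (0.16) or CIH 8W + Nor 4W replicate 1. Edem1 differed by 0.048 ± 0.21 and Edem2 by 0.039 ± 0.14 in CIH 12W relative to Nor 12W, neither called.

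Erlec1 and Os9 are the 2 lectins that recognise trimmed glycans and hand their carriers to Sel1l. Erlec1 (chromosome 11, 30862794 to 30954386) fell to 10.65, 10.33, 10.53 and 10.60 in CIH 12W, from 10.84, 10.64, 11.48, 10.79 and 10.90 in Nor 12W and 10.98, 10.99, 10.89 and 11.09 in CIH 8W + Nor 4W. Nor 8W arrays read 10.86, 10.91, 10.91, 10.91 and 10.51 and CIH 8W arrays 10.82, 11.04, 11.02, 10.84 and 10.84. Every CIH 12W array was below every array of CIH 8W + Nor 4W and of CIH 8W, while Nor 12W replicate 2 lay within the CIH 12W range and replicate 3 far above the rest. Erlec1 differed by -0.40 ± 0.13 against Nor 12W and -0.46 ± 0.13 against CIH 8W + Nor 4W, and both calls held with each array left out.

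Os9 read 10.69, 10.42, 10.41 and 10.42 in CIH 12W, 10.45, 10.43, 10.57, 10.43 and 10.40 in Nor 12W and 10.31, 10.27, 10.42 and 10.43 in CIH 8W + Nor 4W. It read 10.41, 10.43, 10.25, 10.43 and 10.43 in Nor 8W and 10.43, 10.75, 10.81, 10.40 and 10.50 in CIH 8W. These ranges overlapped at 12 weeks, and Os9 differed by 0.030 ± 0.081 and 0.12 ± 0.085, neither called. The difference of Os9 exceeded that of Erlec1 by 0.43 against Nor 12W (two-sided exact permutation p = 0.0159) and by 0.59 against CIH 8W + Nor 4W (exact permutation p = 0.0286, the smallest that 4 against 4 arrays allow). Over 10 pairs of related genes in 3 comparisons, chosen after their values had been seen, 30 such tests were made, 4 had p under 0.05 and none passed Benjamini-Hochberg adjustment (smallest 0.286).

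Derl1, the derlin linked to retrotranslocation of membrane proteins, gave 12.66, 12.76, 12.54 and 12.39 in CIH 12W, with 12.46, 12.25, 12.41 and 12.41 in CIH 8W + Nor 4W. It gave 12.63, 12.63, 12.39, 12.35 and 12.57 in Nor 12W, 12.19, 12.35, 12.10, 12.34 and 12.33 in Nor 8W and 12.38, 12.37, 12.29, 12.17 and 12.23 in CIH 8W. CIH 12W overlapped both 12-week groups. Derl1 was called against CIH 8W + Nor 4W at 0.21 ± 0.085, a call lost without CIH 12W replicate 1 or 2 or CIH 8W + Nor 4W replicate 2 (0.15 to 0.27). Derl2, its paralog, read 6.45, 6.39, 6.52, 6.37 and 6.48 in Nor 12W and 6.25, 6.21, 6.09 and 6.31 in CIH 8W + Nor 4W, with 6.30, 6.33, 6.29 and 6.53 in CIH 12W. It read 6.27, 6.21, 6.14, 6.33 and 6.68 in Nor 8W and 6.27, 6.33, 6.69, 6.33 and 6.43 in CIH 8W. CIH 8W + Nor 4W lay below every Nor 12W array but overlapped CIH 12W and both 8-week groups. It was lower than Nor 12W by 0.23 ± 0.094, a call lost without replicate 3 of either group.

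In the translocon, 2 of 8 genes were called higher in CIH 12W relative to Nor 12W and 1 in CIH 12W relative to CIH 8W + Nor 4W. Sec61a1, which forms the channel, ranged from 9.09 to 9.28 in CIH 12W and from 8.83 to 9.09 in Nor 12W, without overlap before rounding. It differed by 0.18 ± 0.082 against Nor 12W and 0.14 ± 0.086 against CIH 8W + Nor 4W, the second not called, and the first call was lost without Nor 12W replicate 3, 4 or 5 or CIH 12W replicate 3 (lowest difference 0.14). Ssr1 to Ssr4 form the translocon-associated complex that helps weakly gated chains into the channel. Ssr2 read 13.26, 13.30, 13.49 and 13.32 in CIH 12W, 12.99, 13.27, 13.32, 12.93 and 12.92 in Nor 12W and 12.82, 12.88, 12.60 and 12.90 in CIH 8W + Nor 4W. It read 12.34, 12.86, 12.66, 12.93 and 12.94 in Nor 8W and 12.99, 13.03, 12.99, 12.49 and 12.85 in CIH 8W. CIH 8W + Nor 4W lay below both other 12-week groups, by 0.54 ± 0.13 under CIH 12W and 0.29 ± 0.13 under Nor 12W, without overlap in either case, while CIH 12W and Nor 12W overlapped and differed by 0.25 ± 0.13.

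Ssr1 was 13.18, 13.20, 13.33 and 13.57 in CIH 12W, 13.24, 13.01, 13.18, 13.02 and 12.97 in Nor 12W and 13.36, 13.28, 13.11 and 13.33 in CIH 8W + Nor 4W. At 8 weeks it was 12.58, 12.83, 12.75, 12.77 and 12.59 in normoxia and 13.09, 13.02, 12.86, 12.64 and 12.62 in CIH. The 12-week groups overlapped, and all 12-week arrays lay above all Nor 8W arrays. Ssr1 was called at 0.23 ± 0.10 in CIH 12W relative to Nor 12W, a call lost without Nor 12W replicate 2, 4 or 5 or CIH 12W replicate 3 or 4, with a lowest difference of 0.15. Ssr3, Ssr4, Sec62 and Sec63 were called in 0 of the comparisons, with differences between -0.16 and 0.17 in all of them. Sec61b, the beta subunit, lay near background, with 5.23, 5.18, 5.25, 5.13 and 4.93 in Nor 12W, 4.76, 4.84, 4.98, 4.83 and 4.98 in Nor 8W and 4.97, 5.01, 5.09, 4.73 and 4.78 in CIH 8W. It gave 5.15, 4.98, 5.05 and 5.06 in CIH 12W, with 5.01, 4.98, 5.05 and 4.91 in CIH 8W + Nor 4W. Nor 12W was its highest group, above Nor 8W by 0.27 ± 0.071 and above CIH 8W + Nor 4W by 0.16 ± 0.076.

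The COPII coat had 3 of 9 genes called higher in CIH 12W relative to Nor 12W, all 3 without overlap, and 1 in CIH 12W relative to CIH 8W + Nor 4W. Sec24d (chromosome 3, 123264801 to 123365641), a cargo-binding subunit of the inner coat needed for collagen export in vertebrates, had the widest difference of the 40. Its signals were 12.76, 12.84, 12.96 and 12.89 in CIH 12W, 12.52, 12.48, 11.74, 12.24 and 12.21 in Nor 12W and 12.75, 12.56, 12.56 and 12.59 in CIH 8W + Nor 4W. They were 12.13, 12.39, 12.32, 12.16 and 12.12 in Nor 8W and 12.61, 12.19, 11.16, 12.20 and 12.21 in CIH 8W. Every CIH 12W array was above every other array, CIH 8W + Nor 4W was above every Nor 12W array, and the low arrays were CIH 8W replicate 3 and Nor 12W replicate 3, both with neuronal markers. Nor 8W replicate 3, with the highest neuronal marker mean (12.12), read 12.32. Both low arrays also had the lowest smooth muscle marker means of the series, 13.83 and 14.09, against 14.75 to 15.44 on the others. The part of either tissue in these readings was not tested. The difference was 0.63 ± 0.19 against Nor 12W (adjusted p = 0.16), and the 0.25 ± 0.21 against CIH 8W + Nor 4W was not called.

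Sec31a, which cages the vesicle in the outer coat, read 13.83, 13.82, 14.00 and 13.74 in CIH 12W, 13.60, 13.67, 13.24, 13.41 and 13.35 in Nor 12W and 13.83, 13.84, 13.71 and 13.57 in CIH 8W + Nor 4W. It read 13.27, 13.52, 13.45, 13.33 and 13.18 in Nor 8W and 13.61, 13.32, 12.54, 13.13 and 13.19 in CIH 8W. CIH 12W cleared Nor 12W but overlapped CIH 8W + Nor 4W, and the differences were 0.39 ± 0.14, called, and 0.11 ± 0.15, not called. Sec24c, another cargo-binding subunit, read 10.45, 10.50, 10.53 and 10.38 in CIH 12W and 10.15, 10.18, 9.50, 10.09 and 10.13 in Nor 12W, where replicate 3 was low. It read 10.34, 10.20, 10.13 and 10.13 in CIH 8W + Nor 4W, 9.78, 10.15, 10.06, 10.03 and 10.20 in Nor 8W and 10.45, 10.19, 9.68, 9.86 and 10.07 in CIH 8W. Sec24c differed by 0.46 ± 0.14 and 0.26 ± 0.15, the first called. Sec23b, an inner coat subunit, differed by 0.37 ± 0.13 against CIH 8W + Nor 4W, where 4 CIH 12W arrays at 9.53, 9.56, 9.60 and 9.68 lay above 9.28, 9.26, 9.07 and 9.29. Its paralog Sec23a read 12.65, 12.83, 13.01 and 13.21 in CIH 12W, with 12.87, 12.84, 12.88 and 12.93 in CIH 8W + Nor 4W, which overlapped, with a difference of 0.048 ± 0.10. Sec13, Sec23a, Sec24a, Sar1a and Sar1b were called in neither CIH 12W comparison, at 0.13 ± 0.10, 0.19 ± 0.098, 0.20 ± 0.10, 0.051 ± 0.089 and -0.14 ± 0.14 against Nor 12W.

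Promoter sequence was available from RefSeq (GRCm38.p6) for 36 of the 41 genes, as 250 bases before to 50 bases after a start site that RefSeq lists, and was searched on both strands for elements of the unfolded protein response. The ER stress response element, CCAAT followed after 9 bases by CCACG, occurred in Syvn1 and Derl3 and in 0.137% of 27025 genes with promoter sequence. The unfolded protein response element TGACGTGG occurred in Sec24d and Sec23a and in 0.714%. The second form of the ER stress response element, ATTGG followed after 1 base by CCACG, and the element TGATGCAA occurred in 0 of the 36. They occurred in 0.0444% and 1.03% of the 27025 genes. The 3 genes with an element before that start site are shown up to it because they were called higher in CIH 12W relative to Nor 12W, Derl3 at background readings. Capitals mark the element, from its first to its last fixed base.
Syvn1, chr19:6046482-6046575, plus strand: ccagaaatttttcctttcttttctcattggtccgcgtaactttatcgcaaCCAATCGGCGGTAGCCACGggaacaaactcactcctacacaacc
Sec24d, chr3:123267420-123267495, plus strand: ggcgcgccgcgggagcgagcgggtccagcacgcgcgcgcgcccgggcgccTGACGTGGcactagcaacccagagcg
Derl3, chr10:75893192-75893397, plus strand: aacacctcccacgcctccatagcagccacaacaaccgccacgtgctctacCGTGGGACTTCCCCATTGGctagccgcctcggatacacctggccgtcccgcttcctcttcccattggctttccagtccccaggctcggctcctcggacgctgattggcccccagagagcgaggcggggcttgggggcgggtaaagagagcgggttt
The element began 44 bases before the start site in Syvn1, 26 in Sec24d and 156 in Derl3, where it read on the opposite strand, and in Sec23a it began 6 bases after it. The start site of Sec24d used here, at position 123267496, lies 2695 bases inside the gene span given above, so the annotated span begins upstream of the stretch shown. Sel1l, Rpn1, Prkcsh, Uggt1 and Lman2 carried none of the 4 in this window. A match is a description of letters and not of binding.

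At 8 weeks fewer of the genes were called. In CIH 8W relative to Nor 8W, 5 of 40 were called higher and 0 lower, beside 3.99% and 2.47% of all probe sets (9.88% and 4.1% of genes above background on every array). The median was 0.033, beside 0.027 over the genes above background, no gene had groups that did not overlap in that comparison, against 0.274% of probe sets higher and 0.356% lower (0.477% and 0.141% of genes above background), and the smallest adjusted p was 0.696. The 5 genes were Lman1 (0.29 ± 0.077), Edem1 (0.45 ± 0.20), Os9 (0.19 ± 0.076), Sar1a (0.25 ± 0.084) and Sar1b (0.32 ± 0.13). Lman1 and Sar1a kept the call with each array left out in turn, and the other 3 lost it without Nor 8W replicate 3 or CIH 8W replicate 3 among others, with lowest differences of 0.29 for Edem1, 0.13 for Os9 and 0.23 for Sar1b. Without the 5 arrays with neuronal markers only Lman1 of the 5 kept its call. Cell type markers moved in the same comparison: all 12 macrophage markers were higher in CIH 8W, with a median of 1.102 and 8 called, their mean level running from 10.81 to 13.56 against 9.50 to 12.36. All 10 endothelial markers were also higher (3 called), and all 10 smooth muscle markers were lower (2 called). Their part in the 5 calls was not tested.

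Edem1 varied most within groups, at 9.76, 10.89, 10.42, 9.75 and 10.27 in CIH 8W and 9.48, 9.60, 9.31, 9.88 and 10.54 in Nor 8W. Its 12-week arrays read 9.83, 9.98, 9.70, 9.96 and 10.05 in Nor 12W, 9.76, 10.09, 10.02 and 9.93 in CIH 12W, with 9.91, 9.77, 9.91 and 9.96 in CIH 8W + Nor 4W. The highest readings were on CIH 8W replicates 2, 3 and 5 and Nor 8W replicate 5, and these 4 arrays also had the highest macrophage marker means at 8 weeks, 12.13 to 13.56 against 9.50 to 11.58 on the other 8-week arrays. The part of macrophages in the Edem1 difference was not tested.

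The 2 Sar1 GTPases, which start coat assembly, were called in CIH 8W relative to Nor 8W and not in CIH 12W relative to Nor 12W. Sar1a read 14.23, 14.41, 14.41, 14.28 and 14.28 in CIH 8W and 14.00, 14.14, 13.92, 14.03 and 14.26 in Nor 8W. It read 14.60, 14.26, 14.75, 14.47 and 14.52 in Nor 12W, 14.35, 14.59, 14.71 and 14.63 in CIH 12W, with 14.65, 14.54, 14.51 and 14.69 in CIH 8W + Nor 4W. Nor 8W was the low group. Sar1b read 13.84, 13.71, 14.32, 14.07 and 13.91 in CIH 8W and 13.88, 13.58, 13.37, 13.69 and 13.73 in Nor 8W. It read 14.03, 13.61, 14.19, 14.10 and 14.06 in Nor 12W, 13.66, 13.91, 13.75 and 14.13 in CIH 12W, with 14.11, 13.70, 14.19 and 14.05 in CIH 8W + Nor 4W, and all groups overlapped their neighbours. The difference of the CIH effects at 12 and 8 weeks was -0.46 ± 0.19 for Sar1b, called, and -0.20 ± 0.12 for Sar1a, not called.

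That difference, (CIH 12W - Nor 12W) - (CIH 8W - Nor 8W), was called for 12 of 40 genes, 10 in the positive direction and 2 in the negative, beside 4.27% and 6.16% of all probe sets (11.9% and 10.3% of genes above background). The positive ones were Rpn1 (0.41 ± 0.15), Stt3a (0.24 ± 0.11), Prkcsh (0.45 ± 0.18), Lman2 (0.43 ± 0.16), Sel1l (0.66 ± 0.16), Syvn1 (0.21 ± 0.092), Edem3 (0.33 ± 0.13), Sec31a (0.59 ± 0.20), Sec24c (0.45 ± 0.19) and Sec24d (0.77 ± 0.27). Erlec1 (-0.49 ± 0.17) and Sar1b were negative. None passed adjustment over all probe sets, with the smallest adjusted p for Sel1l at 0.0963, and 8 of the 12 calls were lost without the 5 arrays with neuronal markers. Rpn1, Prkcsh, Lman2, Sel1l, Erlec1, Sec31a and Sec24d kept the call with each single array left out. For the same difference 9 of 10 smooth muscle markers were called positive (median 0.83), and 6 of 12 macrophage markers (median -1.39, all 12 negative) and 4 of 10 endothelial markers were called negative, and their part in the 12 calls was not tested.

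In normoxia the 2 time points differ by 4 weeks of feeding and age. In Nor 12W relative to Nor 8W, 13 of 40 were called higher and 0 lower, beside 4.21% and 3.11% of all probe sets (11.1% and 6.42% of genes above background), with a median of 0.12 beside 0.033. Lman1 rose by 0.47 ± 0.077 without overlap (adjusted p = 0.0269), and was the 1 gene past the adjusted threshold, against 0.0303% of all probe sets (0.115% of genes above background). In 7 of the 10 fits with an array left out no gene passed, and in the other 3 (without Nor 8W replicate 3 or 5 or Nor 12W replicate 2) Lman1 did. Groups did not overlap for 2 of the 40 as higher and 0 as lower, against 0.802% and 0.737% of all probe sets (1.83% and 1.65% of genes above background). Sar1a (0.45 ± 0.084, adjusted p = 0.0556), Ssr1 (0.38 ± 0.095), Ddost (0.37 ± 0.14), Ssr2 (0.34 ± 0.12) and Sec13 (0.31 ± 0.094) followed. Sec13, shared by the outer coat and the nuclear pore, read 10.17, 10.14, 10.19, 9.99 and 9.88 in Nor 12W and 9.50, 9.87, 9.71, 9.93 and 9.83 in Nor 8W. It read 10.02, 9.91, 9.82, 9.55 and 9.64 in CIH 8W, 10.12, 10.16, 10.29 and 10.27 in CIH 12W, with 10.23, 10.23, 9.99 and 9.99 in CIH 8W + Nor 4W. The highest Nor 8W array lay within the Nor 12W range. Of the 13 calls 8 held with each array left out, and those of Rpn1, Ddost, Stt3a, Sec24a and Sar1b did not. Without the 5 arrays with neuronal markers 4 were lost, those of Ssr2, Rpn1, Ddost and Sar1b. Of the markers, 3 of 9 for adventitial fibroblasts were called higher and 2 of 10 for smooth muscle lower.

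In CIH 12W relative to CIH 8W, 25 of 40 were higher and 1, Erlec1, was lower, beside 5.21% and 7.19% of all probe sets (14.9% and 10.5% of genes above background), with a median of 0.31 beside -0.004. Groups did not overlap for 19 as higher and 1 as lower, against 1.71% and 2.25% of all probe sets (5.42% and 2.15% of genes above background). Here 9 passed adjustment, against 0.461% of all probe sets (1.92% of genes above background): Ssr1, Rpn1, Stt3a, Prkcsh, Lman1, Lman2, Sel1l, Sec13 and Sec31a, at 0.37 (Lman1) to 0.69 (Sec31a). Between 2 and 17 genes passed with an array left out, the fewest without CIH 12W replicate 4 and the most without CIH 8W replicate 1, and Rpn1 and Stt3a passed in every such fit. At the unadjusted level 24 of the 26 calls held with each array left out, all but Sec61a1 and Syvn1. Without the 5 arrays 2 calls were lost, Sec61a1 and Syvn1. Markers moved here too: 3 of 10 for smooth muscle were called higher (all 10 positive), and 7 of 10 for endothelium, 4 of 8 for T cells, 4 of 10 for B and plasma cells and 1 of 12 for macrophages (all 12 negative) were called lower. Their part in the 26 calls was not tested. The 2 time comparisons share no arrays, and 11 of the 40 genes were called higher in both, as were 0.585% of all probe sets and 2.42% of genes above background. These 11 were Ssr1, Ssr2, Rpn1, Ddost, Stt3a, Lman1, Derl1, Sec13, Sec23a, Sec24a and Sar1a. They made up 84.6% of the 13 calls in normoxia and 44.0% of the 25 in CIH. Among genes above background the shared calls made up 21.9% and 16.2% of the higher calls, and among all probe sets 13.9% and 11.2%. With so many of the 40 called in each comparison, a large overlap follows in part from the size of the lists. Sec23a read 12.60, 12.44, 12.64, 12.26 and 12.44 in Nor 8W, 12.63, 12.42, 12.55, 12.61 and 12.68 in CIH 8W and 12.85, 12.59, 12.93, 12.71 and 12.64 in Nor 12W. It was higher at 12 weeks by 0.27 ± 0.092 in normoxia and 0.35 ± 0.098 in CIH. The CIH effects at 8 and at 12 weeks, which share no arrays either, had 1 higher call in common, Lman1, out of 5 and 16, beside 0.139% of all probe sets and 0.451% of genes above background called higher in both.

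**Figure D4:**
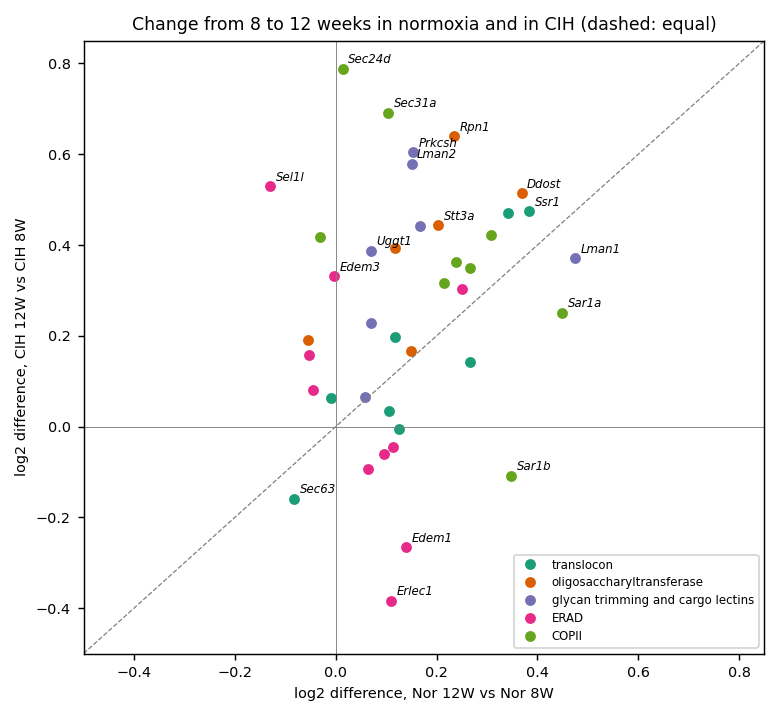
Log2 difference of each of the 40 genes from 8 to 12 weeks in normoxia (x axis) and in CIH (y axis), coloured by step, with a dashed line where both are equal. Sec24d (0.014 and 0.79), Sec31a (0.10 and 0.69) and Sel1l (-0.13 and 0.53) lie far above the line, Sar1b (0.35 and -0.11) and Erlec1 (0.11 and -0.38) below it, and Lman1 (0.47 and 0.37) near it.

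After 4 weeks back in normoxia, 35 of the 40 genes were not called against Nor 12W, which with 4 against 5 arrays does not show that they were equal. By step, COPII had a median difference of 0.14, with 8 of 9 genes positive and 0 called. The medians were 0.016 for glycan trimming and cargo lectins, 0.0075 for the oligosaccharyltransferase, -0.0057 for ERAD and -0.015 for the translocon. In CIH 8W + Nor 4W compared with Nor 12W, 1 of 40 was called higher (Edem3) and 4 lower (Sec61b, Ssr2, Man1b1 and Derl2), beside 4.14% and 5.23% of all probe sets (7.46% and 9.2% of genes above background), with a median of 0.014 beside -0.028. Man1b1 alone kept its call with each array left out, and no gene passed adjustment (smallest 0.252), against 0.0379% of all probe sets as higher and 0.262% as lower (0.0795% and 0.194% of genes above background). Groups did not overlap for 3 of the 40 genes as higher and 2 as lower, against 1.84% and 2.6% of all probe sets (4.44% and 5.26% of genes above background). Without the 5 arrays with neuronal markers the calls of Sec61b, Ssr2 and Edem3 were lost, and in this comparison 4 of 10 smooth muscle markers were called higher and 3 of 9 for adventitial fibroblasts and 3 of 8 for brown adipocytes lower. CIH 12W and CIH 8W + Nor 4W differ in the last 4 weeks, and both compared with Nor 12W share its 5 arrays. Rpn1 stood 0.50 ± 0.11 above Nor 12W in CIH 12W, with 0.011 ± 0.11 in CIH 8W + Nor 4W, Prkcsh 0.45 ± 0.13 and 0.016 ± 0.13, and Lman2 0.39 ± 0.11 and -0.030 ± 0.11. The corresponding values of Sel1l were 0.61 ± 0.11 and 0.22 ± 0.11, and those of Sec24d 0.63 ± 0.19 and 0.38 ± 0.19, the second of each not called.

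Cell type markers also moved with the CIH 12W results. Between CIH 12W and Nor 12W, all 10 smooth muscle markers had the higher mean in CIH 12W, 3 were called, and their mean level ran from 15.32 to 15.39 against 14.09 to 15.21. All 11 sympathetic neuron markers had the lower mean (4.93 to 5.14 against 4.93 to 10.03), and 5 of 8 brown adipocyte markers were called lower (6.79 to 8.05 against 7.77 to 10.83). White adipocyte markers had 5 of 7 called lower and 0 higher, with a median of -0.91 (10.94 to 11.98 against 11.76 to 13.35). Macrophage markers had the lower mean for 10 of 12 and the higher for 2 (median -0.32, 0 called). Endothelial markers had 1 of 10 called higher and 2 lower, and adventitial fibroblast markers 1 of 9 higher and 1 lower. Markers of B and plasma cells had 1 to 4 of 10 above background on any array, and 0 were called in this comparison. Without the 5 arrays with neuronal markers, 5 of the 17 calls in CIH 12W relative to Nor 12W were lost (Sec61a1, Ssr1, Ganab, Syvn1 and Derl3). Against CIH 8W + Nor 4W, where no such array is present, 5 of 10 smooth muscle markers were higher and 5 lower, 0 were called, and the lists overlapped at 15.32 to 15.39 and 15.17 to 15.44. Brown and white adipocyte markers had 1 of 8 called lower and 1 of 7 called higher, while 7 of the 8 and 5 of the 7 had the lower mean (medians -0.81 and -0.34). All 9 adventitial fibroblast markers had the higher mean in CIH 12W (median 0.20, 0 called), their levels meeting at 14.02 to 14.18 and 13.75 to 14.02. Of 12 macrophage markers 9 were higher and 3 lower, and of 10 endothelial markers 2 and 8, with 0 called. The part of smooth muscle, fibroblast, macrophage, endothelial, B and plasma cell, neuronal and fat content in the calls of either comparison was not tested.

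Genes of the same pathway outside the 40 were counted from a list of its other components, of which 108 were measured. In CIH 12W relative to Nor 12W, 17 of these were called higher and 6 lower, beside 4.29% and 6.99% of all probe sets (11.5% and 8.6% of genes above background on every array). In CIH 12W relative to CIH 8W + Nor 4W, 21 were higher and 0 lower, beside 2.43% and 3.9% of all probe sets (6.18% and 2.31% of genes above background). Creld2, an ER protein induced by ER stress, rose by 1.44 ± 0.26 (adjusted p = 0.0081) and 1.89 ± 0.27 (adjusted p = 0.0208). Lman2l, a relative of Lman2, rose by 0.44 ± 0.091 (adjusted p = 0.021) and 0.49 ± 0.096 (adjusted p = 0.103). Magt1, the oxidoreductase subunit that serves Stt3b, was called at 0.64 ± 0.16 and 0.79 ± 0.16, and Alg12 and Alg9, mannosyltransferases that build the glycan donor, at 0.58 ± 0.14 against Nor 12W and 0.44 ± 0.078 against CIH 8W + Nor 4W respectively.

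The shares just given for the 2 CIH 12W comparisons also stand beside the smaller lists. The 16 genes of lipid-linked glycan assembly had 4 called higher and 3 lower against Nor 12W. Against CIH 8W + Nor 4W, 7 were higher and 0 lower. Of 14 COPI and retrieval genes, which return proteins to the ER, 4 and 0 were called higher, and of 14 genes for tail anchor and ER membrane complex insertion, 0 higher and 3 lower against Nor 12W. At 8 weeks 16 of the 108 were called higher in CIH and 4 lower, beside 9.88% and 4.1% of genes above background. They were led by Tram1 (0.45 ± 0.13), a translocon partner, Ufd1 (-0.23 ± 0.076), a cofactor of the extracting ATPase, Magt1 (0.42 ± 0.15) and Alg8 (0.40 ± 0.15). In Nor 12W relative to Nor 8W 28 were higher and 3 lower, beside 11.1% and 6.42%, led by Kdelr2 (0.56 ± 0.11), a retrieval receptor, and Copb2 (0.44 ± 0.093), a COPI subunit. In CIH 12W relative to CIH 8W 37 were higher and 2 lower, beside 14.9% and 10.5%. Of these, 11 were past adjustment, where 1.92% of genes above background passed as higher and 0.504% as lower. These were led by Creld2 (1.83 ± 0.26), Ergic1 (0.89 ± 0.13), a cycling membrane protein, Alg12 (0.93 ± 0.14) and Alg3 (1.05 ± 0.17).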

How the data were processed

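The deposited table holds 1 log2 value per probe set and array for 23 arrays, made by the authors with the Affymetrix software that the submitters' notes and the methods name (Expression Console, Transcriptome Analysis Console 4.0). How probes were summarised, scaled or centred is not given in the sources used here, so values were used as deposited. Control probe sets were left out. Group means were fitted in limma 3.58.1 (R 4.3.3) to all 65956 gene-level probe sets and 5 groups, without a block, with empirical Bayes moderation, and adjusted p-values are Benjamini-Hochberg over all of them. Values after ± are standard errors, and each difference is the first group named minus the second. A call needs a p below 0.05 before adjustment together with a fold change above 1.1, as in the study's methods. Arrays have no count depth, and their number, 4 or 5 per group, limits the precision. The sample titles call the replicates biological and say no more about them, so p-values measure the spread between these samples.

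The genes, the lists beside them and the tests were chosen with earlier results of these data known. Every array's value is given for up to 8 genes per comparison with the smallest p among those called and for genes called in both CIH 12W comparisons. Of other pathway genes, up to 4 per comparison are named. The fit was also run on simulated data with noise drawn independently for each value. Those data lack variation in tissue content shared between genes, so no call here rests on them. Alternatives were scaling, moderation, array weights, a dim filter, the fold threshold, the groups in the fit, a replicate block and left-out arrays. Averaging all probe sets of a gene could give no other value, since each gene has 1. Promoter sequences are RefSeq's, matched by symbol.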

Additional observations from a re-analysis of the deposited data

Results flagged for a closer look

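Across the 25 genes whose values are given on every array and the mean over the 40, 130 groups of 4 or 5 arrays were searched for an array far from the rest, and 11 were found, where chance alone gives about 1 in 20. Nor 12W replicate 3, one of the arrays with neuronal markers, was low for Edem3 (11.36, others 11.80 to 11.84) and Sec24c (9.50, others 10.09 to 10.18) and high for Os9 (10.57, others 10.40 to 10.45). Nor 8W replicate 3, with the highest neuronal markers, was low for Os9 (10.25, others 10.41 to 10.43). Nor 12W replicate 3 also had a smooth muscle marker mean of 14.09, against 14.85 to 15.21 on the other Nor 12W arrays. Its adventitial fibroblast marker mean was 14.78, against 13.95 to 14.07. The part of neuronal tissue, smooth muscle or fibroblasts in these readings was not tested.

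CIH 8W + Nor 4W replicate 1 was high for Rpn1 (13.28, others 13.17 to 13.18) and Sel1l (12.18, others 11.98 to 12.00). In CIH 12W, replicate 3 was low for Sel1l (12.26, others 12.47 to 12.50), replicate 4 high for Derl2 (6.53, others 6.29 to 6.33) and replicate 1 high for Os9 (10.69, others 10.41 to 10.42). Erlec1 was low on Nor 8W replicate 5 (10.51, others 10.86 to 10.91), and Sar1b on Nor 12W replicate 2 (13.61, others 14.03 to 14.19).

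The effect of CIH differed between 12 and 8 weeks at an unadjusted limma p under 0.05 for 12 genes: 0.77 for Sec24d, 0.66 for Sel1l, 0.59 for Sec31a, 0.45 for Prkcsh and for Sec24c, 0.43 for Lman2, 0.41 for Rpn1, 0.33 for Edem3, 0.24 for Stt3a, 0.21 for Syvn1, -0.46 for Sar1b and -0.49 for Erlec1. No adjusted p was under 0.05, the smallest being 0.0963.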

How the results depend on the processing

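No difference of a called gene changed sign: of 1655 values of 90 gene calls under the alternatives, 1472 kept the call and 183 lost it. With a fold change over 1.5 the counts of called genes were 0 in CIH 8W relative to Nor 8W, 2 in CIH 12W relative to Nor 12W, 0 in CIH 12W relative to CIH 8W + Nor 4W, 0 in CIH 8W + Nor 4W compared with Nor 12W, 0 in Nor 12W relative to Nor 8W, 4 in CIH 12W relative to CIH 8W and 3 for the difference of the CIH effects. In a fit of only the groups compared, CIH 8W relative to Nor 8W had 3 calls and CIH 8W + Nor 4W compared with Nor 12W 8. Quantile normalization gave 2 calls in CIH 8W relative to Nor 8W and medians of 0.10 in CIH 8W + Nor 4W compared with Nor 12W and 0.40 in CIH 12W relative to CIH 8W. Without the 5 arrays with neuronal markers, which leaves fewer arrays, there were 1, 3 and 4 calls in CIH 8W relative to Nor 8W, CIH 8W + Nor 4W compared with Nor 12W and the difference of the CIH effects. The cause of the other shifts was not tested.

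Leaving out each array in turn gave 2 to 7 calls in CIH 8W relative to Nor 8W, 13 to 18 in CIH 12W relative to Nor 12W, 10 to 14 in CIH 12W relative to CIH 8W + Nor 4W, 2 to 7 in CIH 8W + Nor 4W compared with Nor 12W, 10 to 15 in Nor 12W relative to Nor 8W, 25 to 27 in CIH 12W relative to CIH 8W, 9 to 15 for the difference of the CIH effects and 24 to 29 in the F-test. The medians ran from 0.0072 to 0.080, 0.15 to 0.18, 0.12 to 0.15, -0.0099 to 0.042, 0.084 to 0.15 and 0.26 to 0.34 in the first 6 of these. With the replicate number as a block the counts were 5, 18, 12, 6, 14, 27, 13 and 28 in the same order, and 4 of the 90 gene calls were lost. Same-numbered arrays of different groups had correlations of -0.48 to 0.69, with a median of 0.055 beside -0.012 for other-numbered arrays. Of 23 arrays, 8 were closest to their own number. The number expected by chance was not computed, so this check does not decide whether the numbers pair the arrays.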
